A study of Homo sapiens with 24 samples.

Results

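METTL16 and the genes of the S-adenosylmethionine cycle were examined in maps of N6-methyladenosine (m6A) from HepG2, an established liver cancer cell line. The members were 7 named genes, METTL16, MAT2A, MAT2B, MAT1A, AHCY, AHCYL1 and MTR. At least 1 m6A summit lay in the spans of 12465 RefSeq protein-coding and lncRNA genes, 6 of the members among them and MAT1A not. They were chosen by name, and every summit inside the RefSeq span of a member was counted. A summit is the highest point of a peak of RNA fragments enriched by an anti-m6A antibody over input. All groups were stable lines of HepG2 made with a lentivirus and selected with puromycin: the R298P line expressed METTL14 (R298P), the D312A line METTL14 (D312A), the WT line METTL14 (WT) and the EGFP line only EGFP. The labels describe 1 stable line for each construct and no removal of the cells' own METTL14. Each line had 3 biological replicates, with 1 summit list for each of the 12 immunoprecipitated libraries.

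S-adenosylmethionine is the methyl donor of nearly all cellular methylation, m6A included. Methionine adenosyltransferases make it from methionine: MAT2A is the catalytic subunit of the form found in most dividing cells, MAT2B its regulatory subunit, and MAT1A the form of the differentiated adult liver. After the methyl group is given away, AHCY hydrolyses S-adenosylhomocysteine, and MTR, methionine synthase, turns homocysteine back into methionine with a folate-borne methyl group and a cobalamin cofactor. METTL16 is an RNA m6A methyltransferase that acts without METTL14, on U6 small nuclear RNA and on hairpins in the 3′ part of MAT2A RNA, through which the supply of S-adenosylmethionine feeds back on MAT2A RNA. AHCYL1 resembles AHCY in sequence and is known as a regulator of inositol trisphosphate receptors.

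The lists held between 8669 summits (D312A replicate 2) and 15373 summits (EGFP replicate 1), and the sources used here do not give the reads behind them. METTL14, the expressed gene, held 8.33 ± 2.08 summits in R298P, 7.0 ± 3.46 in D312A, 9.0 ± 2.0 in WT and 1.0 ± 0 in EGFP (SD, n = 3 each). Of 8 hepatocyte markers, 8 held a summit in at least 1 library, against 1 of 4 fibroblast, 2 of 4 blood and 2 of 4 endothelial markers. Among all protein-coding genes the share was 51.3%, close to that of the blood and endothelial markers. None of the hepatocyte markers held a summit in all 12 libraries, where 17.0% of protein-coding genes did. A summit needs both enrichment by the antibody and enough RNA, so a span without a summit shows neither that its RNA is absent nor that it is unmethylated. Whether each summit marks a methylated base was not tested.

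Summits lay in 6 of the 7 members, 94 in all. METTL16, MAT2A and MTR held at least 1 in each of the 12 libraries, which was true of 17.0% of the 20056 protein-coding genes. For MAT2A this rests on a site that also lies in the span of GGCX, described below. Outside that shared stretch MAT2A held a summit in 4 libraries only, those of replicate 1. The share of 17.0% likewise counts summits that lie in more than 1 span. AHCY held summits in 9 libraries, MAT2B in 6 and AHCYL1 in 1. MAT1A, the adult liver enzyme (hg38, chromosome 10, 80271820 to 80289658), held 0 summits in every library, while 51.3% of protein-coding genes held at least 1 somewhere. MTR had the most, 34, a number reached by 5.55% of protein-coding genes.

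**Figure D1:**
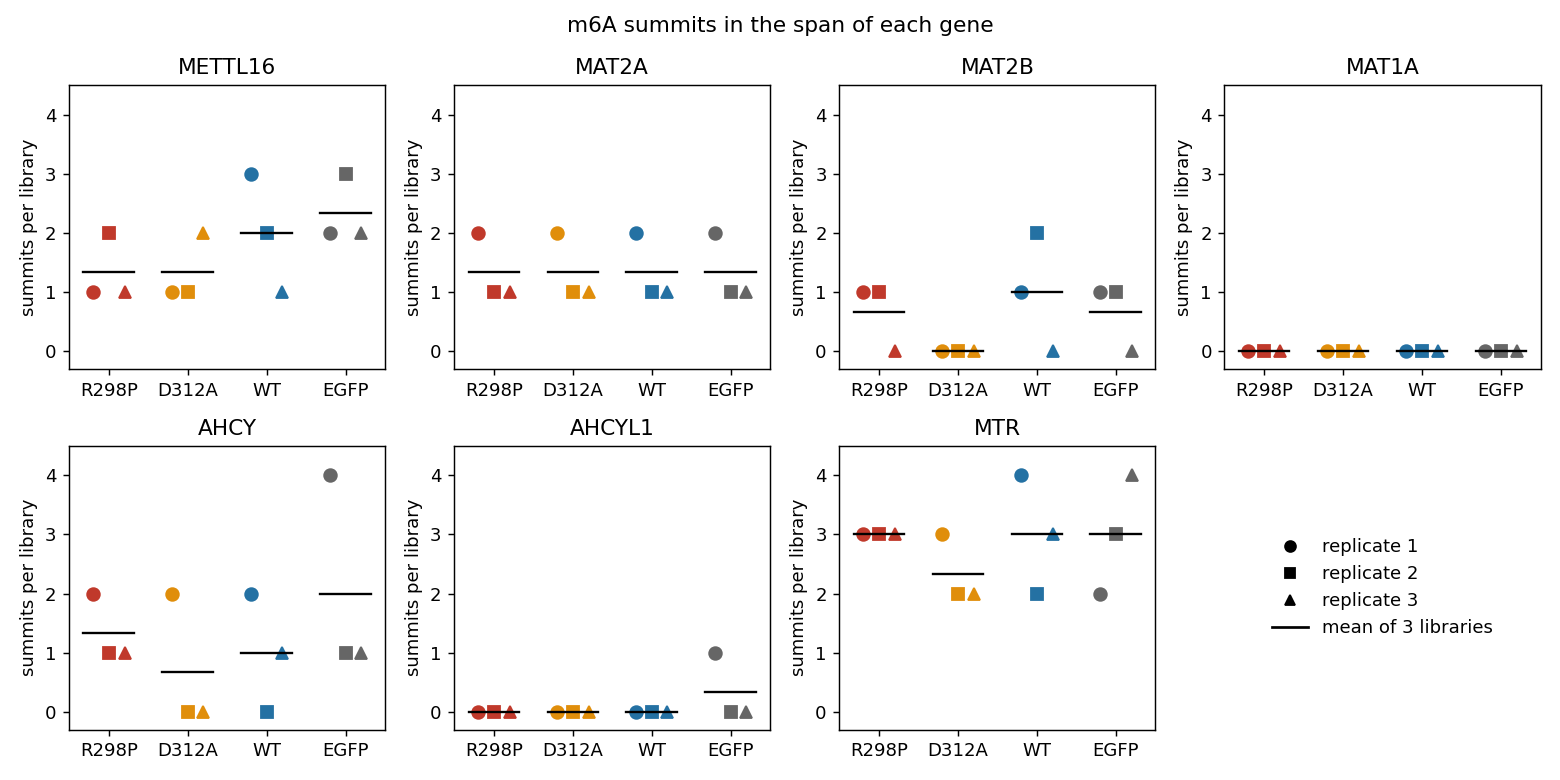
Summits per library (vertical axis) in the span of each of the 7 genes, by line, with 1 symbol per library and a bar at the mean of 3 libraries. METTL16 lies between 1 and 3 in every line, MAT2A is at 2 in replicate 1 of each line and at 1 elsewhere, and MAT1A is at 0 throughout.

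METTL16 (hg38, chromosome 17, 2415715 to 2511888, minus strand) held 1, 2 and 1 summits in R298P replicates 1, 2 and 3, and 1, 1 and 2 in those of D312A. It held 3, 2 and 1 in WT and 2, 3 and 2 in EGFP. The lines overlapped: a library with 2 summits occurred in each. The means were 1.33 ± 0.577 in R298P, 1.33 ± 0.577 in D312A, 2.0 ± 1.0 in WT and 2.33 ± 0.577 in EGFP (SD, n = 3 each). The share of the variance that lay between lines was 36%. An exact permutation test over the 15400 ways to divide the libraries among 4 lines gave p = 0.377 (adjusted p = 1.0 over the 12465 genes).

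Within METTL16 nearly all summits fell in a stretch of under 1 kb that lies inside the gene, some 4 kb before the 3′ end of the span. Summits of different libraries within 100 nt of each other were merged into a region. The most frequent region (chromosome 17, 2420036 to 2420091) was present in 11 of 12 libraries, 4321 to 4376 nt before the 3′ end. Its summits carried −log10 p or q values between 14.4 and 31.6. Among them, the best placed summit was that of EGFP replicate 1, where 3.75% of the list had a value at least as high, and the worst placed that of WT replicate 3, with 45.9%.

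A neighbouring METTL16 region (chromosome 17, 2420378 to 2420402) differed between lines in presence. It held a summit in 0 of 3 R298P, 1 of 3 D312A, 2 of 3 WT and 3 of 3 EGFP libraries, with values between 10.2 and 16.5. In the 6 libraries that held both, the summits of the 2 regions lay 293 to 349 nt apart. The R298P libraries had no such pair: replicates 1 and 3 had a single summit at 2420053 and 2420036, and replicate 2 had one at 2420244, which lies 153 nt from the first region and 134 nt from the neighbouring one. The neighbouring region was the one member region of 21 found in 0 of 3 R298P and 3 of 3 EGFP libraries. Of all 27940 regions present in these 6 libraries, 1.56% had this pattern, and 1 region gives no basis for calling the members different. The call was absent when summits were merged within 200 nt, which joins both regions through the R298P replicate 2 summit, and when every list was reduced to its 8669 best summits.

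The remaining METTL16 summits were single ones: 2416359 in WT replicate 1, 644 nt before the 3′ end, 2419675 in EGFP replicate 2, and 2419789 in R298P replicate 2, whose value of 5.10 was among the lowest of its list.

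**Figure D2:**
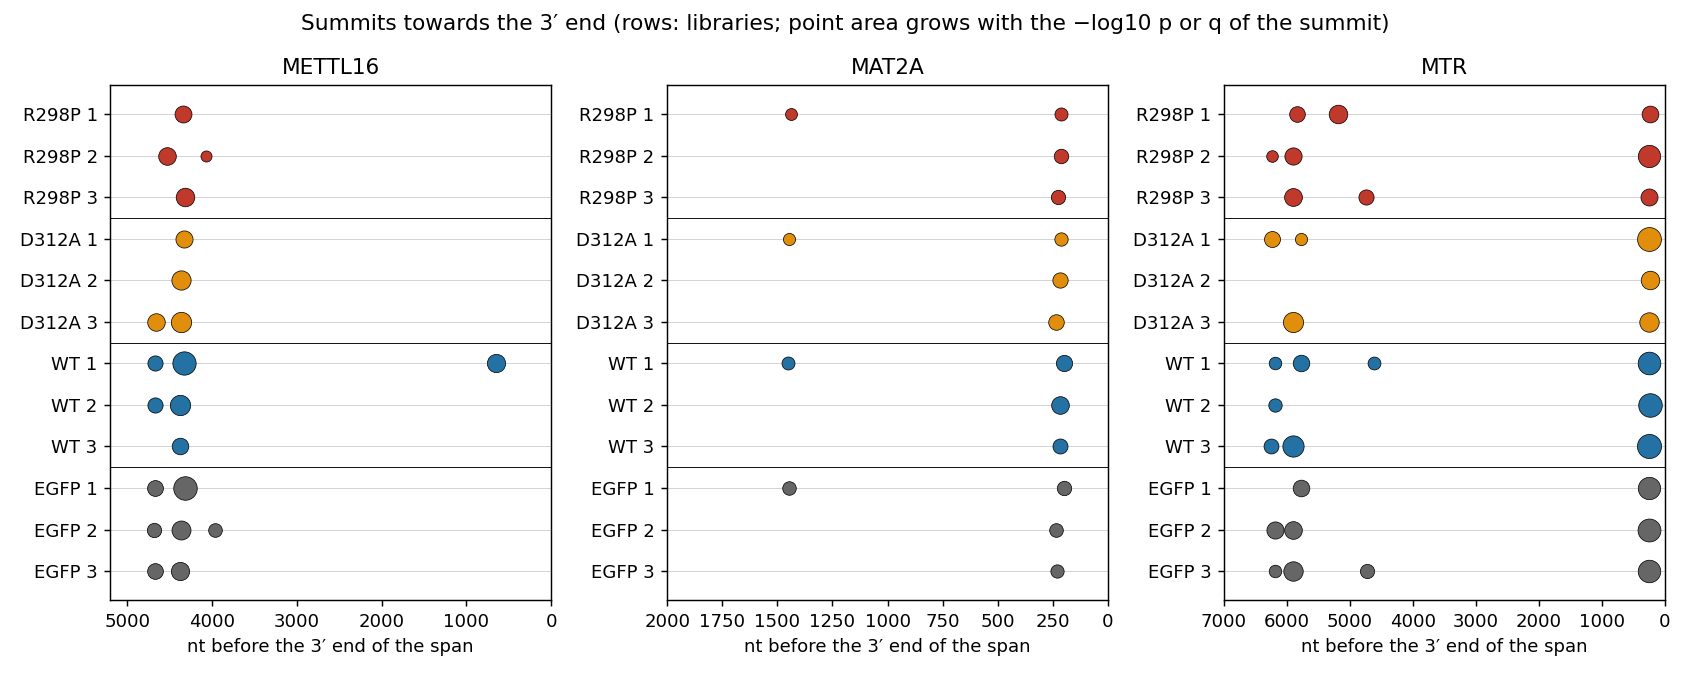
Position of each summit in METTL16, MAT2A and MTR, in nt before the 3′ end of the span (horizontal axis, 3′ end at the right), with 1 row per library and point area growing with the −log10 p or q value. The MAT2A and MTR summits nearest the end appear in all 12 rows. The METTL16 summit farthest left, at 4663 nt or more, appears in 0 of 3 R298P, 1 of 3 D312A, 2 of 3 WT and 3 of 3 EGFP rows. Outside the axis lies 1 MTR summit near the 5′ end.

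MAT2A (hg38, chromosome 2, 85539168 to 85545281, plus strand) had the same numbers in every line: 2, 1 and 1 summits in replicates 1, 2 and 3 of R298P, and likewise of D312A, of WT and of EGFP. Each line averaged 1.33 ± 0.577 (SD, n = 3; exact permutation test over the 4 lines, p = 1.0), with none of the variance between lines. The equality was lost under stricter limits: with summits of a value of at least 10, and likewise with the 8669 highest summits of each list, WT minus EGFP was 0.667 (exact permutation p = 0.4 in both), and 25% and 31.4% of the variance lay between lines (exact p = 0.836 and 0.591). Both MAT2A sites lay in the 3′ part of the span, the part that holds the hairpins methylated by METTL16; whether a summit falls on a hairpin was not tested, as no genome sequence was used here.

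One site (chromosome 2, 85545046 to 85545080) was present in 12 of 12 libraries, 201 to 235 nt before the 3′ end. Its values were 8.10, 10.5 and 10.2 in R298P, 8.47, 11.9 and 12.4 in D312A, 13.8, 16.7 and 11.4 in WT, and 10.3, 9.04 and 8.39 in EGFP replicates 1, 2 and 3. These are the authors' values, set by each list's own depth, so they are not compared between libraries. The place in its own list was modest, between 36.6% and 87.4% of the list with a value at least as high. The last 562 nt of the MAT2A span are shared with GGCX, a vitamin K-dependent carboxylase gene on the opposite strand (85544720 to 85561493). The lists carry no strand, so this summit cannot be given to MAT2A or to GGCX, whose own 3′ end lies 326 to 360 nt from it. The rest of the GGCX span held 0 summits in 12 libraries.

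The second MAT2A site (chromosome 2, 85543831 to 85543845, 1436 to 1450 nt before the 3′ end) lies in the span of no other gene. It was present in replicate 1 of all 4 lines and in 0 of the other 8 libraries, with low values of 6.31 in R298P, 6.64 in D312A, 7.92 in WT and 8.87 in EGFP. The names of the deposited lists carry another prefix for replicate 1 than for replicates 2 and 3, and the meaning of that prefix was not stated in the labels. Of all 34313 regions, 86 or 0.251% had this pattern, against 0 regions (0%) found in the 4 replicate 2 libraries alone and 9 (0.0262%) in the 4 replicate 3 libraries alone. The presence of this site thus followed the replicate number and not the METTL14 form, and the cause was not tested.

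MAT2B (hg38, chromosome 5, 163503064 to 163519354, plus strand) held 1, 1 and 0 summits in R298P, 0, 0 and 0 in D312A, 1, 2 and 0 in WT and 1, 1 and 0 in EGFP replicates 1, 2 and 3. Replicate 3 was at 0 in all lines, and D312A was at 0 in all replicates. The means were 0.667 ± 0.577 in R298P, 0 ± 0 in D312A, 1.0 ± 1.0 in WT and 0.667 ± 0.577 in EGFP (SD, n = 3 each), and the exact permutation test over the 4 lines gave p = 0.416 (adjusted p = 1.0). The D312A lists, with 12357, 8669 and 12350 summits, were also the shortest on average. R298P replicates 1 and 2, with lists of 11960 and 11590, held 1 MAT2B summit each. Whether list length bears on these counts was not tested.

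All 7 MAT2B summits lay close behind the gene's 2 annotated starts, not at its 3′ end. The region 163503353 to 163503370 lay 289 to 306 nt behind the first start and was present in 2 R298P, 0 D312A, 1 WT and 1 EGFP libraries. The region 163505654 to 163505677 lay 35 to 58 nt behind the second start and was present in 0 R298P, 0 D312A, 2 WT and 1 EGFP libraries. One summit of this region, that of WT replicate 2, falls inside the RefSeq window around the second start (GRCh38.p14), and its 30 bases are shown 5′ to 3′ on the gene's strand, chr5:163505639-163505668, with the summit base in capitals, because it is the one member site near a recurrent start whose sequence was at hand.
MAT2B second start: gttggaggaggtggcGgccgctgaggctgc
The core of the m6A consensus is AC after G or A. Neither GAC nor AAC occurs on the gene's strand of this window, and 1 match occurs on the opposite strand. Of the 35116 RefSeq start windows, 47.3% hold GAC or AAC in the same 30 positions on the gene's strand and 75.1% on either strand. A missing match says only that these letters are not in this window.

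**Figure D3:**
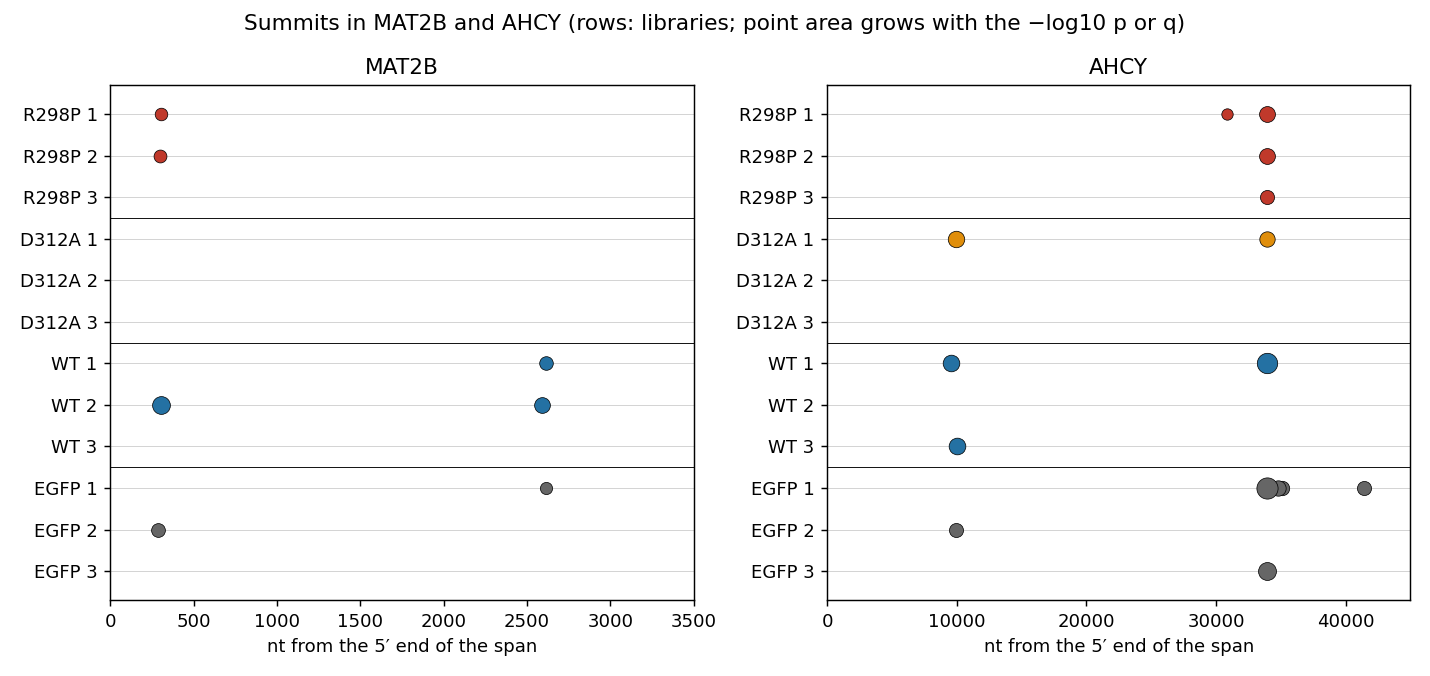
Position of each summit in MAT2B and AHCY, in nt from the 5′ end of the span (horizontal axis), with 1 row per library and point area growing with the −log10 p or q value. MAT2B summits form 2 groups behind its starts with none in the D312A rows, and the most frequent AHCY group, aligned over several rows, is present in the 3 R298P rows and in 4 of the other 9.

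AHCY (hg38, chromosome 20, 34231981 to 34311836, minus strand) held 2, 1 and 1 summits in R298P, 2, 0 and 0 in D312A, 2, 0 and 1 in WT and 4, 1 and 1 in EGFP replicates 1, 2 and 3. Replicate 1 was the highest of its line throughout, and all lines overlapped. Means were 1.33 ± 0.577 in R298P, 0.667 ± 1.15 in D312A, 1.0 ± 1.0 in WT and 2.0 ± 1.73 in EGFP (SD, n = 3 each), with an exact permutation p of 0.673 over the 4 lines (adjusted p = 1.0).

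The most frequent AHCY region (chromosome 20, 34277880 to 34277916) was present in 3 of 3 R298P, 1 of 3 D312A, 1 of 3 WT and 2 of 3 EGFP libraries. Its summits carried values of 13.01, 12.98 and 9.79 in R298P, 12.1 in D312A, 23.04 in WT, and 25.2 and 17.2 in EGFP. It held a summit in 4 of 4 replicate 1 libraries and 3 of the other 8. The position is 25074 to 25110 nt behind the nearest annotated start and 45899 to 45935 nt before the 3′ end of the span. RefSeq gives AHCY 3 starts, and spans do not tell exons from introns. A second region (34301850 to 34301862) lay 1128 to 1140 nt behind a start and was present in 0 R298P, 1 D312A, 1 WT and 1 EGFP libraries. The other 5 AHCY regions had 1 library each, 3 of them EGFP replicate 1, the longest list.

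AHCYL1 (hg38, chromosome 1, 109984765 to 110023742, plus strand) held 1 summit in all, at 109984970 in EGFP replicate 1, 205 nt behind its first start. R298P, D312A and WT libraries held 0.

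MTR (hg38, chromosome 1, 236795281 to 236903981, plus strand) held 3, 3 and 3 summits in R298P, 3, 2 and 2 in D312A, 4, 2 and 3 in WT and 2, 3 and 4 in EGFP replicates 1, 2 and 3. No line stood apart, since each other line had a library at the R298P value of 3. Means were 3.0 ± 0 in R298P, 2.33 ± 0.577 in D312A, 3.0 ± 1.0 in WT and 3.0 ± 1.0 in EGFP (SD, n = 3 each; exact permutation test over the 4 lines, p = 0.762, adjusted p = 1.0).

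The most frequent site of MTR (chromosome 1, 236903725 to 236903750) was present in 12 of 12 libraries, 231 to 256 nt before the 3′ end of the span, and no other gene span covers it. Its values were 14.9, 28.0 and 15.4 in R298P, 32.5, 18.7 and 20.7 in D312A, 29.1, 31.7 and 33.2 in WT, and 28.1, 29.7 and 28.7 in EGFP replicates 1, 2 and 3. In R298P 36.2%, 4.07% and 38.2% of the list had a value at least as high, and in D312A 2.42%, 22.9% and 19.7%. In WT it was 5.62%, 4.88% and 3.08%, and in EGFP 6.56%, 6.41% and 5.91%. Lists of different length and unknown depth do not let this be read as a change in methylation.

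A second group of MTR summits lay about 6 kb before the 3′ end. The region 236898079 to 236898209 was present in 3 of 3 R298P, 2 of 3 D312A, 2 of 3 WT and 3 of 3 EGFP libraries. The region 236897734 to 236897790 was present in 1 of 3 R298P, 1 of 3 D312A, 3 of 3 WT and 2 of 3 EGFP libraries. At the other end of the gene, D312A replicate 2, the shortest list, alone held a summit at 236795324, behind a start of MTR. It is shown with its summit base in capitals (GRCh38.p14, plus strand, chr1:236795309-236795338), beside the MAT2B window above, as the second summit at a start.
MTR start: gaaaggttctaaatgTctgcggggctcaga
On the gene's strand this window holds neither GAC nor AAC, while 47.7% of start windows hold GAC or AAC there at these positions. It holds 2 matches on the opposite strand, and 75.4% of windows hold a match on either strand.

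For none of the 6 members with summits did a difference between lines pass the test. AHCYL1, with 1 summit in 1 library, could not pass it, since every partition gives the same value. Exact permutation p-values over the 4 lines lay between 0.377 and 1.0, all with an adjusted p of 1.0. Across all 12465 genes 323, or 2.59%, had an exact p under 0.05, and 0 (0%) passed after Benjamini-Hochberg adjustment. With 15400 partitions, a single gene at the lowest possible p could not pass that adjustment, so the adjusted values decide little about any member. Between pairs of lines the mean differences in METTL16 were -0.667 summits for R298P minus WT and for D312A minus WT (exact permutation test, two-sided, p = 0.7 for both); without WT replicate 1 both were -0.167, and without WT replicate 3 both were -1.17. They were -1.0 for R298P minus EGFP and for D312A minus EGFP (exact p = 0.3 for both) and -0.333 for WT minus EGFP (exact p = 1.0). With 3 libraries against 3 no p can be lower than 0.1. For MAT2B, D312A minus WT was -1.0 (exact p = 0.4), and it was -0.5 without WT replicate 2. For AHCY, D312A minus EGFP was -1.33 (exact p = 0.5), and it was -0.333 without EGFP replicate 1 and 0 with lists of equal length. The comparisons with WT share the WT libraries and those with EGFP the EGFP libraries. In replicates 2 and 3 alone METTL16 held 2 and 1 in R298P, 1 and 2 in D312A, 2 and 1 in WT and 3 and 2 in EGFP, and the difference of R298P minus WT was 0.

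The 94 summits formed 25 regions. Every library held 2 of them, the last MAT2A and MTR sites, and 13 were seen in 1 library each. Regions seen once made up 52% of the member regions and 35.8% of all 34313 regions. R298P against WT gave 0 member regions found in every R298P but no WT library (background 0.711%) and 0 the other way round (1.72%). D312A against WT likewise gave 0 and 0 (background 0.116% and 1.32%), WT against EGFP 0 and 0 (0.408% and 0.255%), and D312A against EGFP 0 and 0 (0.168% and 1.17%). R298P against EGFP gave 0 present in R298P alone (0.787%) and the METTL16 region described above. With 15 to 21 member regions in a comparison, counts of 0 or 1 do not stand apart from these background shares.

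Distance to the 3′ end of the span differed between the members. It was measured along the genome, and positions of exons were not read, so a longer distance does not place a site outside the last exon. Of 16 summits in the MAT2A span 12, or 75%, lay within 1000 nt of the 3′ end, all of them at the site shared with GGCX, of 34 MTR summits 12, or 35.3%, and of 21 METTL16 summits 1, or 4.76%. None of the 7 MAT2B, 15 AHCY and 1 AHCYL1 summits did. Over the members the share per library was 28.9% ± 9.08 with the shared site and 17.5% ± 6.55 without it (SD, n = 12 libraries). Over the 102293 summits of all genes in a single protein-coding span, a set that leaves such shared sites out, it was 15.3% ± 0.945. Without the shared site 13 of 82 member summits, or 15.9%, lay near the 3′ end, close to the share of all genes, and 12 of these 13 were the 1 MTR site. A region found in all 12 libraries within 1000 nt of the 3′ end occurred in 2 of the 7 members, MTR and, at the site shared with GGCX, MAT2A, and in 2.88% of 15842 protein-coding genes with a known strand. These genes include those without any summit, while 6 of the 7 members held one. The sets are thus unlike, and the shared site cannot be given to MAT2A, so the members are not called enriched.

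The rest of the pathway was read from 4 lists of genes. The counts of genes with summits below are descriptions of short lists. Among all protein-coding genes 51.3% held a summit in at least 1 library and 17.0% in all 12. Of 12 genes of the methionine cycle and its branches 8 held a summit and 0 held one in all 12 libraries. The fullest were MTRR, which reactivates methionine synthase, and BHMT2, a homocysteine methyltransferase. MTRR held 2 summits in R298P, 3 in D312A, 4 in WT and 3 in EGFP over the 3 libraries of a line. BHMT2 held 1 in R298P, 4 in D312A, 3 in WT and 3 in EGFP. GNMT, CTH, NNMT and SLC25A26 held 0. Of 10 folate cycle genes 7 held summits, among them FTCD, a liver enzyme of histidine and folate metabolism.

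FTCD held 1, 1 and 1 summits in R298P, 1, 1 and 2 in D312A, 1, 1 and 3 in WT and 4, 3 and 3 in EGFP replicates 1, 2 and 3. EGFP lay above R298P and D312A without overlap and met WT at 3. The exact permutation test over the 4 lines gave p = 0.0545 (adjusted p = 1.0).

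Of 10 genes of methionine salvage and polyamines 3 held summits. AMD1, which decarboxylates S-adenosylmethionine for polyamine synthesis, held 7 in R298P, 7 in D312A, 7 in WT and 8 in EGFP, with at least 2 in each of the 12 libraries. MTAP, the phosphorylase that starts methionine salvage, held 0, 1 and 1 in R298P, 3, 1 and 2 in D312A, 1, 2 and 3 in WT and 3, 2 and 4 in EGFP (exact permutation test over the 4 lines, p = 0.109, adjusted p = 1.0). EGFP lay above R298P without overlap and overlapped the other 2 lines.

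Among 8 regulators of MAT2A RNA and m6A methyltransferases other than METTL3-METTL14, 6 held summits. YTHDC1, the nuclear m6A reader that binds MAT2A RNA, held 10 in R298P, 6 in D312A, 11 in WT and 8 in EGFP. PCIF1, the methyltransferase of cap-adjacent m6Am, held 5 in R298P, 6 in D312A, 6 in WT and 6 in EGFP. NUDT21, a 3′ end processing factor that acts on MAT2A RNA with METTL16, held 0. In none of these 4 lists did a gene reach an exact p under 0.05 over the 4 lines, where 2.59% of all genes did. Genes with 1 summit in all could not reach it.

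**Figure D4:**
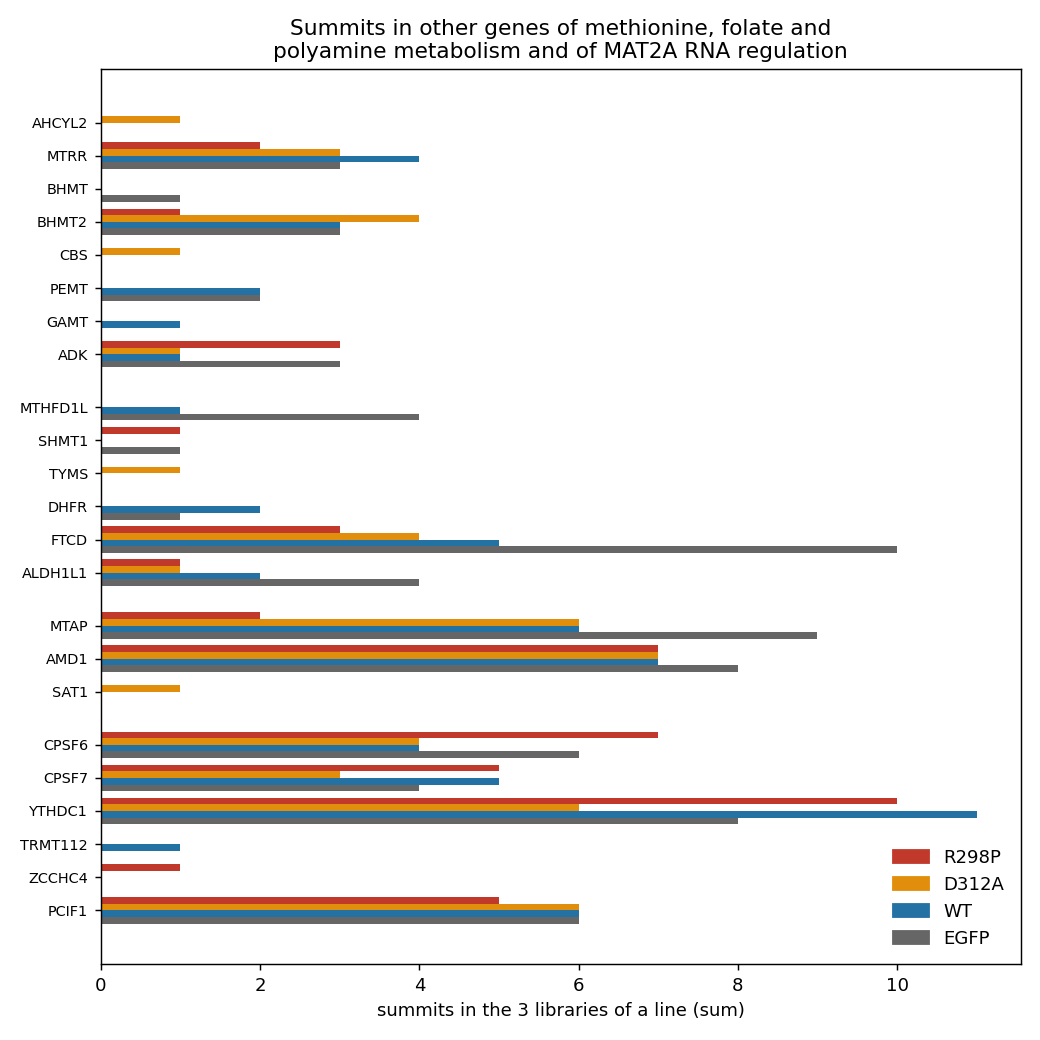
Summits summed over the 3 libraries of each line (horizontal axis, counts from 0) for 23 genes of the 4 pathway lists with at least 1 summit. AMD1 shows nearly equal bars, with 7 or 8 in every line, and FTCD ranges between 3 in R298P and 10 in EGFP.

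By summit numbers over the 12 libraries, the genes most like METTL16 among 4441 protein-coding candidates were CSRNP1, DEXI and FKBPL (Pearson r = 0.85, 0.84 and 0.84). Those most like MAT2A were FOXC1, FURIN and HGD (r = 0.93, 0.92 and 0.91). FURIN held 3 or 4 summits in the replicate 1 libraries and 2 in all others. The libraries share list length and replicate number, and the counts are small, so these are descriptions only.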

How the data were processed

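The 24 samples comprised 12 immunoprecipitated and 12 input libraries, grouped by line and replicate number from their titles. The authors deposited 1 summit list for each immunoprecipitated library. Each summit carries a −log10 p or q value as deposited. The sources used here do not say whether it is p or q, which threshold was set, or which input was matched. In the lists themselves the lowest value lay between 5.00 and 5.03 in every library, so summits little above it lie near the floor. Per the submitters' processing notes the tools included STAR 2.7.9a, MACS2 2.1.2, HOMER 4.9 and bedtools 2.17.0, with hg38; their roles are not stated. Values were used to rank summits within a list, and alternatives kept values of at least 10 or the best 8669 of each list. Depth is unknown, so no counting interval was set.

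Summits were counted in RefSeq (GRCh38.p14) spans and merged into regions within 100 nt. Lines were compared by exact permutation tests, over all 15400 partitions for 4 lines and 20 assignments for pairs, with Benjamini-Hochberg adjustment over all genes with a summit (Python 3.11.15, numpy 2.4.6, pandas 2.3.3). The scripts were tested on simulated data. Genes named beyond the members were the 2 with most summits in each pathway list and the 3 most correlated with METTL16 and MAT2A. One gene of the folate list is not reported here by name. GGCX was named after its overlap was seen, as were the genes without summits. The members and lists were chosen with earlier results of these data known.

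The deposited expression table of WT and R298P input was not used. Its rows carry Ensembl identifiers that the reference table used here does not pair with symbols, and its 18 columns per library carry codes that match no label. The planned comparison of input RNA was therefore not run, and amounts of member RNA were not analysed here. Same-numbered libraries of different lines correlated between -0.36 and 0.53 in their deviations from line means over 5232 genes. Different-numbered ones lay between -0.59 and 0.45. All replicate 1 pairs were positive, from 0.10 to 0.53 with a mean of 0.31, against means of 0.046 and 0.050 in replicates 2 and 3. The numbers were not treated as pairs over the 4 lines, so the main tests leave this likeness of the replicate 1 libraries out of account. Only R298P and WT had all same-numbered pairs over the limit of 0.1, with 0.53, 0.21 and 0.27 for replicates 1, 2 and 3. This pairing came from the data, not from the labels. The main R298P minus WT tests did not use it and ran over all 20 assignments. A paired version is given only among the alternatives, where it was run for every pair of lines. The values do not single out this pairing. R298P replicate 2 reached 0.23 with WT replicate 3, and R298P replicate 3 reached 0.14 with WT replicate 2. The remaining different-numbered pairs of R298P and WT libraries were negative. Deviations of the libraries of a line cancel out in each gene. Positive values with 1 library thus force negative values with another, and the negative values add nothing on pairing.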

Additional observations from a re-analysis of the deposited data

How the results depend on the processing

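Of 108 alternative values of the tests over 4 lines, 0 passed 0.05 (lowest exact permutation p = 0.0974). Those of AHCYL1, with a single summit, could not pass. The 360 of pairs of lines could not pass it, since 3 against 3 allows no p under 0.1, and say nothing about stability. With a replicate block, permuting within replicate numbers, METTL16 over 4 lines had exact p = 0.444 and MAT2B and AHCY 0.25. For R298P minus WT, whose main test was unpaired, the block gave an exact p of 1.0 for METTL16, but pairs allow no p under 0.25 there. Signs turned only in differences whose own exact permutation p was at least 0.7: AHCY R298P minus WT became -0.333 both with values of at least 10 and with lists of equal length, AHCY WT minus EGFP 0.333 with equal length, and MTR D312A minus WT 0.333 with equal length and 0.0271 per 10000 summits. The cause was not tested.

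Leaving out 1 library, ranges that crossed 0 against their sign were -0.833 to 0.167 (MAT2B, R298P minus WT), -0.167 to 0.833 (AHCY, R298P minus WT), -1.0 to 0.167 (AHCY, D312A minus WT), -0.833 to 0.167 (METTL16, WT minus EGFP), -0.167 to 0.833 (MAT2B, WT minus EGFP) and -1.17 to 0.333 (AHCY, R298P minus EGFP). They turned without WT replicate 2, WT replicate 2, WT replicate 1, WT replicate 3, WT replicate 2 and EGFP replicate 1, in this order. Counts of member regions ranged between 0 and 1 present in R298P and absent in WT, 0 and 2 the other way round, 0 and 1 absent in D312A and present in WT, and 0 and 1 absent in D312A and present in EGFP. The count of 1 region absent in R298P and present in EGFP cannot be lost by leaving out 1 library. It was 0 with merging within 200 nt, which joins both METTL16 regions, and with equal length. In the EGFP replicate 2 list of 13859 summits, 73.5% had a value at least as high as the summit of this region. That summit is thus not among the best 8669, and the count depends on list length.

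In replicates 2 and 3 alone 1 member region was present in R298P and absent in WT, 1 absent in D312A and present in WT, and 1 absent in D312A and present in EGFP. In replicate 1 alone, with 1 library a line, the counts were 3 present and 6 absent in R298P against WT, 1 and 5 in D312A against WT, 4 and 4 in WT against EGFP, 3 and 6 in R298P against EGFP, and 2 and 6 in D312A against EGFP. The share near the 3′ end lay between 28.2% and 33.0% with other distances, values and list lengths, and was 17.5% for summits in no other span. That setting, and counting summits in replicates 2 and 3, were chosen after the data were examined. No other setting was tried for input RNA, since its comparison was not run.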
